A study of Mus musculus with 52 samples.

Results

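miR-92b is a microRNA hairpin of which both arms were counted separately in small RNA libraries of mouse hippocampus. Its arms, mmu-miR-92b-3p and mmu-miR-92b-5p, are 2 of the 1900 mature miRNAs in the deposited counts. They were chosen by name, on measured region, time and housing effects of these same libraries that were already known. Region and time differences in the level of each arm are therefore given as descriptions, without a test. The ratio of the arms was tested over housing and time, and its p-values are not independent evidence either. Adjusted p-values are given for the housing effects, which neither arm passed, and are not independent evidence. Where a call or adjusted p of a time difference is named, it shows only how near the threshold the value lay.

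The mice were of the strain C57B/6JRj and 20 weeks of age in every group, with no transgene or drug named in the labels. Tissue came from the CA region, which holds the pyramidal cell fields, or from the dentate gyrus (DG). Animals had spent 2 or 10 weeks in a home cage (HC) or in environmental enrichment (EE). The CA groups were 2wHC_CA with 6 libraries, 2wEE_CA with 7, 10wHC_CA with 6 and 10wEE_CA with 8, and the DG groups were 2wHC_DG with 6, 2wEE_DG with 5, 10wHC_DG with 6 and 10wEE_DG with 8. Nothing in the labels ties a library to its own animal, so the spread between libraries may be technical in part. No date or batch is given either, so that cohort and time in housing cannot be told apart. In 2wHC, 5 of 6 pairs of DG and CA libraries with the same number had a correlation over 0.1. Of these 6 pairs, 4 correlated best with their own number. In 2wEE 0 of 5 pairs were over 0.1, in 10wHC 3 of 6 and in 10wEE 1 of 8. Regions taken from the same animals are therefore not excluded, and the main fit did not pair them.

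A miRNA hairpin is cut by Drosha and Dicer into a short duplex, of which one arm is usually kept in Argonaute and guides it to messenger RNAs through the seed near its 5′ end. miR-92b-3p shares its seed with the miR-25 and miR-92a family and is known in the embryonic mouse cortex as a repressor of Tbr2 (Eomes), which limits the production of intermediate neural progenitors. In the adult hippocampus the dentate gyrus, and not CA, holds a niche of neural stem cells that make new granule cells.

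The hairpin is shown because both measured arms are cut from it. In the RefSeq sequence of the GRCm38.p6 build Mir92b lies at chr3:89227116-89227198 on the minus strand, and capitals mark the arms, the 5p arm first.

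Mir92b hairpin: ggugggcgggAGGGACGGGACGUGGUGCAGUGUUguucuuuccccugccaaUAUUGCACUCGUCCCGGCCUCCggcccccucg

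In the annotation of that build the hairpin overlaps no other gene. It lies 28 bases upstream of the annotated start of Mtx1, which encodes a mitochondrial outer membrane protein and is on the same strand, 279 bases from Thbs3 and 1859 bases from Muc1. The mature arms follow 5′ to 3′, with the seed, bases 2 to 8, in capitals.

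miR-92b-3p: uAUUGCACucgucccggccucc
miR-92b-5p: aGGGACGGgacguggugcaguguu

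The 3p arm has 22 bases and the 5p arm 24, and G and C make up 63.6% and 62.5% of them. Among 380 miRNAs with a mean of at least 10 CPM, which is counts scaled to the same miRNA total in every library, and a RefSeq sequence, the median was 47.8%, and 13.4% of them were as GC-rich as the 3p arm. The other mature miRNAs with its seed are shown for comparison, as they carry the same targeting letters.

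miR-92a-3p: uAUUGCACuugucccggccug
miR-25-3p: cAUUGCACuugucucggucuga
miR-32-5p: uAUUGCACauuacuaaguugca
miR-363-3p: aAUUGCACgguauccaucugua
miR-367-3p: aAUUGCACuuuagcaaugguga

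Counted from the 5′ end, with the base of miR-92b-3p first, miR-92a-3p differs from it by C10U and C21G and is 1 base shorter. miR-92b-3p has 1 RefSeq locus and miR-92a-3p has 2. Reads aligned to several places, 59.3 to 71.0% of the reads in a library, entered no miRNA count, so that miR-92a-3p can stand too low.

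Libraries held 480792 to 6706855 miRNA counts, with a median of 4189269 in CA and 2093319 in DG. Library 3 of 10wEE_CA had the lowest total and stood apart. Its score was 39.4 on the leading principal component of CA, with 74.6% of the variance, against -2.42 to 0.07 in the other 26. Differences of both arms in which it enters are also given without it.

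miR-92b-3p was among the most abundant miRNAs of both regions and was higher in the dentate gyrus than in CA after 2 weeks, but hardly after 10. In the edgeR fit, the DG level after 10 weeks was 0.61 of its 2-week value in home cage and 0.69 in enrichment. By mean CPM it was 0.64 and 0.71 of that value. The fall was smaller with an offset for GC content in the fit. miR-92b-5p was rare, and in every DG library it lay above every CA library. How many other miRNAs separated groups of libraries in this way, here or below, was not counted. Regional differences were common, with 214 of 593 miRNAs higher and 247 lower in DG over all groups at an adjusted p under 0.05 in edgeR. No housing effect on either arm passed the test.

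In 2wHC_CA, miR-92b-3p ranged from 22197 to 30354 CPM with a median of 23201. In 2wEE_CA it ranged from 17908 to 27959 CPM with a median of 25175. In 10wHC_CA it ranged from 23371 to 27683 CPM with a median of 24732. These 3 groups overlapped throughout. In 10wEE_CA it ranged from 4145 to 28978 CPM with a median of 24844. The lowest value there was that of library 3, and the other 7 libraries lay between 22802 and 28978 CPM.

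In 2wHC_DG, the same arm ranged from 38223 to 46226 CPM with a median of 41772. The 5 libraries of 2wEE_DG had 38761, 39517, 36914, 40609 and 37903 CPM. All 11 libraries of 2 weeks in DG lay above every CA library. In 10wHC_DG the arm ranged from 25113 to 29304 CPM with a median of 27135, and in 10wEE_DG from 22867 to 32215 CPM with a median of 27060. All 14 libraries of 10 weeks in DG lay below the 11 of 2 weeks, and they overlapped with those of CA.

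By group mean the order ran from 2wHC_DG, at 42313 ± 3118 CPM (SD, n = 6), and 2wEE_DG, at 38741 ± 1426 CPM (SD, n = 5), to 10wEE_DG, at 27344 ± 3286 CPM (SD, n = 8), and 10wHC_DG, at 27233 ± 1461 CPM (SD, n = 6). The CA groups followed with 24992 ± 1508 CPM (SD, n = 6) in 10wHC_CA, 24488 ± 3044 (SD, n = 6) in 2wHC_CA, 23668 ± 3963 (SD, n = 7) in 2wEE_CA and 23114 ± 7937 (SD, n = 8) in 10wEE_CA. Without library 3 the last group had 25824 ± 2228 CPM (SD, n = 7) and led the CA groups. Of the neighbours in this order, only 2wEE_DG and 10wEE_DG did not overlap. Over all 52 libraries the arm ranked seventh by mean level. Within a library it ranked 5 or 6 in DG at 2 weeks and between 7 and 12 in DG at 10 weeks. In CA it ranked between 7 and 13, apart from rank 45 in library 3 of 10wEE_CA.

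miR-92b-5p had counts between 1 and 64 in a library, so that its values carry a large counting error. In 2wHC_CA it ranged from 4.13 to 6.56 CPM with a median of 5.77, and in 2wEE_CA from 1.49 to 4.53 CPM with a median of 3.13. In 10wHC_CA it ranged from 3.21 to 6.26 CPM with a median of 4.67, and in 10wEE_CA from 1.87 to 6.27 CPM with a median of 4.17. Most libraries of 2wEE_CA, 6 of 7, lay below every library of 2wHC_CA. In library 3 of 10wEE_CA the arm had 1 count, under the floor of 3 counts that corresponds to 6.24 CPM there.

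In 2wHC_DG, miR-92b-5p ranged from 17.1 to 30.4 CPM with a median of 25.6. The 5 libraries of 2wEE_DG had 17.9, 23.7, 14.6, 28.7 and 17.9 CPM. In 10wHC_DG it ranged from 13.5 to 24.5 CPM with a median of 16.5, and in 10wEE_DG from 11.8 to 27.5 CPM with a median of 19.4. The DG groups overlapped one another, and the lowest DG library lay above the highest CA library. Group means in DG were 24.8 ± 4.70 CPM (SD, n = 6) in 2wHC_DG, 20.6 ± 5.60 (SD, n = 5) in 2wEE_DG, 18.8 ± 4.69 (SD, n = 8) in 10wEE_DG and 17.4 ± 4.37 (SD, n = 6) in 10wHC_DG. In CA they were 5.47 ± 0.90 CPM (SD, n = 6) in 2wHC_CA, 4.82 ± 1.13 (SD, n = 6) in 10wHC_CA, 3.87 ± 1.51 (SD, n = 8) in 10wEE_CA (4.13 ± 1.43 without library 3, n = 7) and 3.22 ± 0.93 (SD, n = 7) in 2wEE_CA. In this order only 10wHC_DG and 2wHC_CA, the step between the regions, were neighbours that did not overlap.

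**Figure D1:**
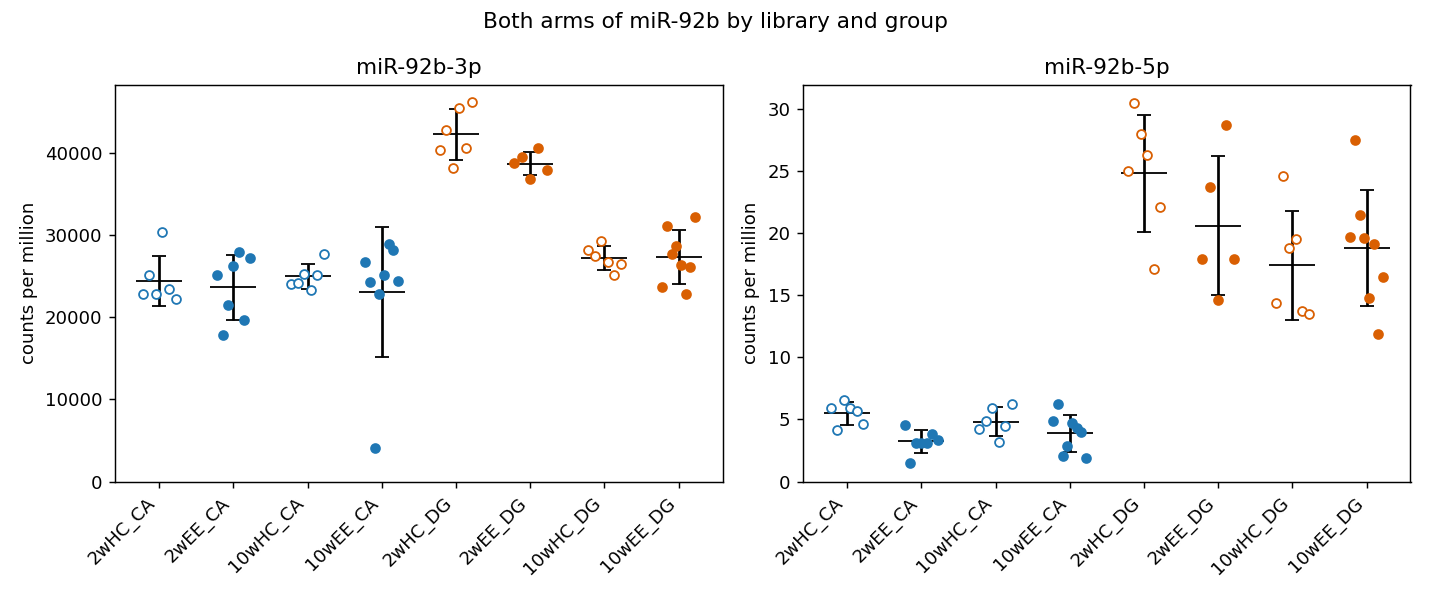
CPM of miR-92b-3p (left) and miR-92b-5p (right) in each of 52 libraries, 1 point a library, by group, with CA in blue, DG in orange, home cage open and enrichment filled; bars are the mean ± SD. The 2-week DG libraries of the 3p arm lie between 36914 and 46226 CPM, above all others, and the point at 4145 CPM is library 3 of 10wEE_CA.

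In the edgeR fit over all libraries, miR-92b-3p in DG exceeded CA by a log2 fold change of 0.84 ± 0.20 (SE) in 2wHC and 0.68 ± 0.20 in 2wEE, and by 0.05 ± 0.20 in 10wHC and 0.17 ± 0.17 in 10wEE. Without library 3 of 10wEE_CA these differences were 0.84, 0.73, 0.09 and 0.08. For miR-92b-5p the log2 differences were 2.18 ± 0.20, 2.62 ± 0.23, 1.72 ± 0.21 and 2.09 ± 0.19 in the same order, and 2.15 ± 0.10 over all groups, a fold of 4.45 (95% interval 3.84 to 5.14). Without that library they were 2.17, 2.66, 1.76 and 2.14, and 2.18 over all groups. In 2wHC 168 of 593 miRNAs were higher in DG and 186 lower at an adjusted p under 0.05 in edgeR. Ranked by fold from the highest, the 3p arm stood at 85 in 2wHC and the 5p arm at 4 over all groups. The name of the arms as miRNAs of neural progenitors could not be checked, as no progenitor marker was measured. In the median CA library the 3p arm had 24480 CPM, and the cell types that held it were not tested in either region. In bulk tissue, fewer cells of a type and less RNA per cell cannot be told apart.

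Time in housing was compared between the 10-week and 2-week groups of the same housing. In DG, miR-92b-3p fell by 0.71 ± 0.09 on the log2 scale in home cage (SE), a fold of 0.61 (95% interval 0.54 to 0.70). In enrichment it fell by 0.53 ± 0.09, a fold of 0.69 (95% interval 0.61 to 0.79). All 6 and all 8 libraries of 10 weeks lay below every 2-week library of their housing. The share of all tested miRNAs that did so was not counted. In home cage 16% of 525 tested miRNAs passed in either direction and 8.38% were lower, and in enrichment 9.9% passed and 5.33% were lower. Scaled by total counts, the calls in home cage split into 45 higher and 23 lower, against 40 and 44 with TMM. The contrasts share no library, but the DG libraries share 1 estimate of the spread. The counts of miRNAs that passed moved with single libraries: in home cage 51, 53 and 48 in place of 84 passed without library 5 of 10wHC_DG, 1 of 2wHC_DG or 4 of 2wHC_DG, and in enrichment 22 and 14 in place of 52 without library 4 or 5 of 2wEE_DG.

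In home cage DG, miR-92b-5p had a log2 fold change of -0.59 ± 0.20 (SE, 95% interval -1.01 to -0.17), and 3 of 6 libraries of 10 weeks lay below every 2-week library. As the arm was chosen with its time effect known, the edgeR adjusted p is no evidence. It was 0.0471, near the threshold. It rose above 0.05 in a fit of only the 2 groups (adjusted p = 0.0525), with total counts (0.0788), with no low-count filter (0.0897) and with an offset for GC content (0.131). It also did so without 1 of 9 of the 12 libraries, namely libraries 1, 2, 3, 4 or 6 of 2wHC_DG and 1, 4, 5 or 6 of 10wHC_DG, with adjusted p-values of 0.0514 to 0.116. In enriched DG its log2 fold change was -0.16 ± 0.20, with an interval of -0.57 to 0.25.

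In CA, miR-92b-3p had a log2 fold change of 0.07 ± 0.24 over time in home cage and -0.03 ± 0.22 in enrichment. Without library 3 of 10wEE_CA these were 0.05 ± 0.10 and 0.13 ± 0.09. miR-92b-5p had -0.16 ± 0.21 and 0.36 ± 0.22, and without that library -0.17 ± 0.21 and 0.37 ± 0.22. Of 581 miRNAs in CA, 0% passed in home cage with edgeR, with 35 at an unadjusted p under 0.05, 3 called by DESeq2 and 0 by limma voom, and 2.58% passed in enrichment. Without library 3 the home cage contrast had 12 calls and the enrichment contrast 55 in place of 15, which became 4, 6 and 9 without library 4 of 10wEE_CA, 4 of 2wEE_CA or 7 of 2wEE_CA.

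The time effects of the regions were set against each other in the fit over all 52 libraries. For miR-92b-3p the effect in DG minus that in CA was -0.80 ± 0.28 in home cage (95% interval -1.36 to -0.23) and -0.51 ± 0.26 in enrichment (-1.04 to 0.02), where 2.19% and 1.35% of 593 miRNAs passed. Without library 3 of 10wEE_CA the differences were -0.75 ± 0.14 and -0.65 ± 0.13. With all libraries neither passed the threshold in edgeR. Both were under it without that library, which is no evidence, as the arms were chosen with the time effects known. The counts behind these percentages, 13 and 8, were 42 and 63 without it, and without 1 of the others 8 to 24 in home cage and 2 to 28 in enrichment. For miR-92b-5p they were -0.45 ± 0.30 and -0.52 ± 0.30, and without that library -0.41 ± 0.30 and -0.52 ± 0.30.

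Enrichment was compared with home cage of the same time and region. In DG, miR-92b-3p had a log2 fold change of -0.14 ± 0.10 at 2 weeks (edgeR adjusted p = 0.999; 95% interval -0.34 to 0.06) and 0.04 ± 0.09 at 10 weeks (adjusted p = 0.955; interval -0.14 to 0.21). miR-92b-5p had -0.27 ± 0.21 and 0.16 ± 0.19 (adjusted p = 0.999 and 0.935). Of 525 miRNAs, 0.571% and 0.381% passed in these contrasts. In CA, miR-92b-3p had 0.00 ± 0.23 at 2 weeks and -0.10 ± 0.23 at 10 weeks (adjusted p = 0.999 and 0.919). Without library 3 of 10wEE_CA the values were -0.0023 ± 0.09 and 0.07 ± 0.09.

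miR-92b-5p had the lowest log2 fold change of all 581 miRNAs in the CA contrast of 2 weeks, -0.74 ± 0.21, and did not pass (edgeR adjusted p = 0.265; unadjusted 0.0018). In that contrast 0% passed with edgeR, with 35 at an unadjusted p under 0.05, 1 called by DESeq2 and 0 by limma voom. At 10 weeks in CA the value was -0.22 ± 0.21 (adjusted p = 0.849), and 0% passed, with 30 at an unadjusted p under 0.05 and 0 called by DESeq2 or limma voom. Without library 3 of 10wEE_CA 9 and 3 miRNAs passed, and miR-92b-5p had -0.75 ± 0.22 and -0.20 ± 0.21 (adjusted p = 0.0782 and 0.955).

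**Figure D2:**
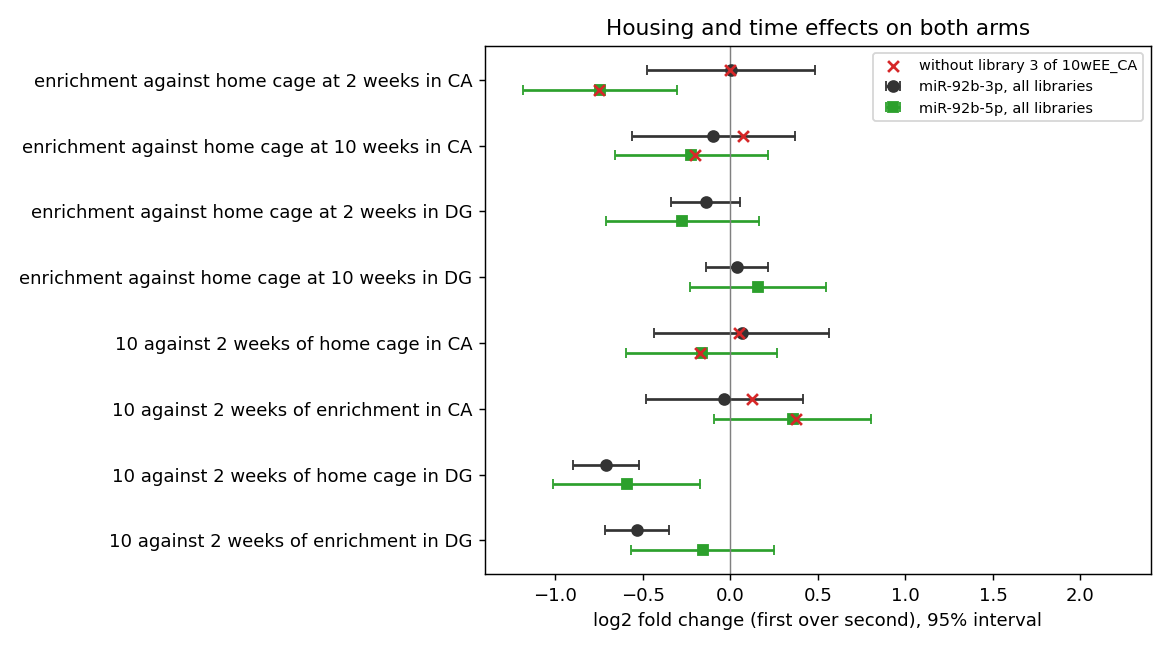
Log2 fold change (first condition over second) of miR-92b-3p, black circles, and miR-92b-5p, green squares, with its 95% interval in the 4 housing and 4 time contrasts; crosses give the value without library 3 of 10wEE_CA, for CA contrasts. Intervals of the 3p arm lie below 0 in both DG time contrasts, and its CA intervals lie within -0.56 and 0.56.

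The enrichment effect on miR-92b-3p at 10 weeks minus that at 2 weeks was 0.18 ± 0.13 in DG and -0.10 ± 0.33 in CA (edgeR adjusted p = 0.993 and 0.994). For miR-92b-5p it was 0.43 ± 0.28 and 0.52 ± 0.30 (adjusted p = 0.993 and 0.994). Between the regions the enrichment effect on the 3p arm differed by -0.16 ± 0.28 at 2 weeks and 0.12 ± 0.26 at 10 weeks (adjusted p = 0.999 and 0.996). The change in CA without library 3 of 10wEE_CA was 0.07 for the 3p arm and 0.55 for the 5p arm, and the regional differences of the 3p arm were -0.11 and -0.013. Of these contrasts 0 miRNAs passed with edgeR, and DESeq2 and limma voom also called 0. The unadjusted p was under 0.05 for 21 miRNAs in DG and 13 in CA, and for 17 and 25 between regions.

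The arms differed in level by orders of magnitude, and the ratio of their counts, which needs no scaling, was compared within libraries. In 2wHC_CA a library held 3480 to 6081 counts of miR-92b-3p per count of miR-92b-5p, with a median of 4461. In 2wEE_CA it held 5108 to 12019 with a median of 8094, and 5 of 7 libraries lay above every library of 2wHC_CA. In 10wHC_CA the ratio ranged from 4268 to 7284 with a median of 5311. In 10wEE_CA it ranged from 1993 to 13125 with a median of 6104, and the lowest value, that of library 3, rests on 1 count of the 5p arm (exact 95% interval 357 to 78758, for counting error only).

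In DG the ratio was lower. In 2wHC_DG it ranged from 1369 to 2382 with a median of 1674. The 5 libraries of 2wEE_DG had 2165, 1666, 2525, 1415 and 2117. In 10wHC_DG it ranged from 1120 to 1971 with a median of 1696, and in 10wEE_DG from 1132 to 2209 with a median of 1377. Every DG library lay below every CA library other than library 3. Averaged over the 4 conditions the ratio in DG was 3.37-fold lower than in CA, a log2 difference of -1.75 (-1.81 without library 3 of 10wEE_CA), given without a test.

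**Figure D3:**
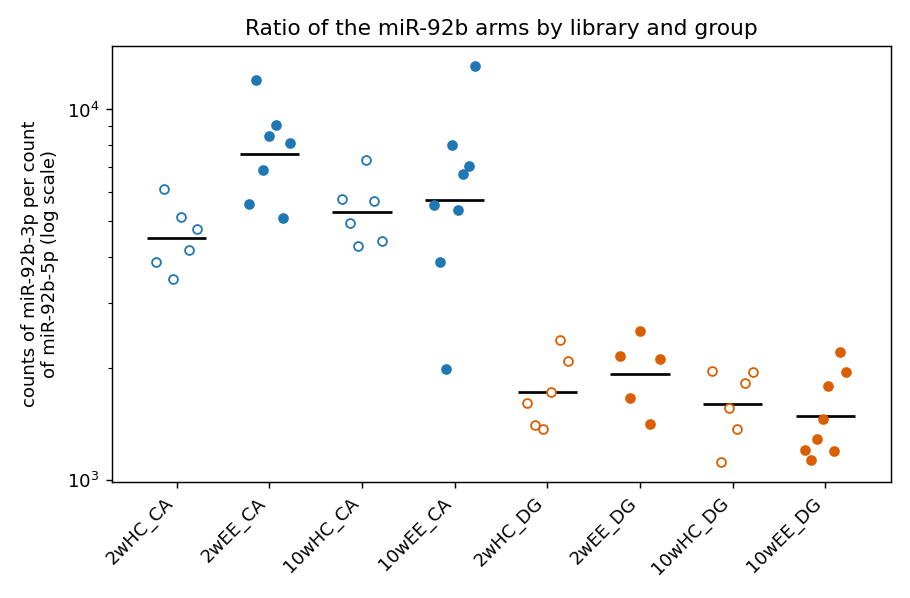
Counts of miR-92b-3p per count of miR-92b-5p in each library on a log scale, by group, with CA in blue, DG in orange, home cage open and enrichment filled; lines are geometric means. DG libraries lie between 1120 and 2525, and CA libraries between 3480 and 13125 apart from 1 at 1993.

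Enriched CA libraries of 2 weeks had a log2 ratio higher by 0.75 than home cage ones (exact permutation p = 0.00699, two-sided), which did not pass after adjustment over 8 comparisons (adjusted exact permutation p = 0.0559). Leaving out 1 of the 13 libraries gave adjusted exact permutation p-values from 0.0346 to 0.121. They were under 0.05 only without library 2 of 2wHC_CA (0.0404) or library 6 of 2wEE_CA (0.0346). As the arms were chosen with their housing effects known, these values are not independent evidence. The other 7 comparisons of housing and time had adjusted exact permutation p-values from 0.373 to 0.746, which are not independent evidence either.

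The seed family was then described, with the roles of its members as background: miR-25 and miR-92a come from clusters that promote proliferation in many tissues, and miR-367 is a miRNA of pluripotent cells. Of the 6 members, miR-92b-3p held 87.0% of the summed CPM in DG at 2 weeks (mean of 11 libraries) and 82.3% at 10 weeks (14 libraries). In CA without library 3 of 10wEE_CA it held 79.9%, and in that library 55.6%. These shares can stand too high, as miR-92a-3p has 2 loci and reads aligned to several places entered no count. miR-92a-3p had 5026 ± 626 CPM in CA (SD, n = 27) and 4529 ± 494 CPM in DG (SD, n = 25). miR-25-3p had 1022 ± 93.1 CPM and 1404 ± 117 CPM. miR-32-5p and miR-363-3p had means under 30 CPM in either region, and miR-367-3p was listed at 0 in all 52 libraries.

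Over time in DG, miR-92a-3p had log2 fold changes of -0.26 ± 0.11 in home cage and -0.08 ± 0.11 in enrichment (edgeR adjusted p = 0.11 and 0.69). miR-25-3p had -0.02 ± 0.09 and 0.10 ± 0.09. Of 5 members tested 1 passed in home cage, miR-92b-3p, on whose effects the arms were chosen, against 16% of all 525 miRNAs in either direction. The median over the 5 was -0.26 against 0.00 over all miRNAs. In enrichment the medians were 0.05 and -0.02, and 2 of 5 passed against 9.9% of all. There miR-92b-3p was lower and miR-363-3p, a rare member with 13 counts in all in 2wEE_DG, was higher by 1.65 ± 0.45 (adjusted p = 0.0184). The members were not tested against one another.

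**Figure D4:**
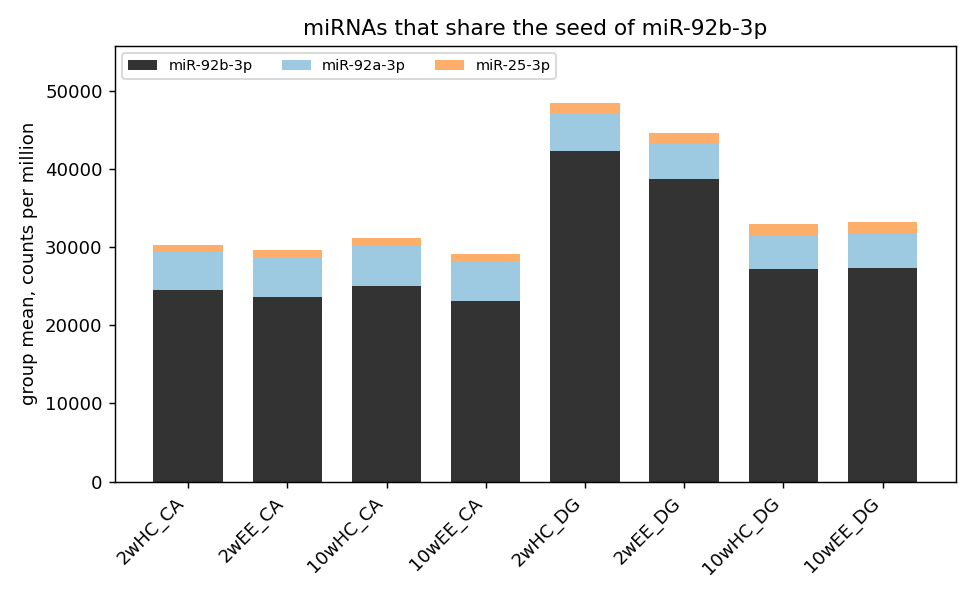
Group mean CPM of the 3 abundant miRNAs with the seed of miR-92b-3p, stacked, in 8 groups (miR-32-5p, miR-363-3p and miR-367-3p are too rare to draw). The miR-92b-3p segment goes from 42313 CPM in 2wHC_DG to 27233 CPM in 10wHC_DG, while miR-92a-3p stays between 4305 and 5169 CPM in all groups. The miR-92a-3p segment can stand too low, as reads aligned to several places entered no count.

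The miRNAs with the most similar levels were ranked by Spearman rho of log2 CPM over the 52 libraries, among 432 miRNAs with a mean of at least 10 CPM. Libraries share depth, region and base composition, so these values are descriptions. For miR-92b-3p they were miR-423-5p (0.889), miR-1843b-3p (0.858), miR-671-3p (0.840), miR-423-3p (0.834) and miR-1964-3p (0.830). For miR-92b-5p they were miR-744-5p (0.886), miR-187-5p (0.871), miR-760-3p (0.862), miR-676-3p (0.859) and miR-877-5p (0.857). The arms had a rho of 0.675 with each other. It was 0.657 without library 3 of 10wEE_CA, where the 10 named miRNAs had 0.820 to 0.883. For deviations from the group means, without library 3 of 10wEE_CA, rho was 0.541 to 0.735 for the first 5 and 0.153 to 0.441 for the other 5. The sequences of 4 of these miRNAs show that their seeds (capitals) differ from those of both arms.

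miR-423-5p: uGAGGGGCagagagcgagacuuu
miR-671-3p: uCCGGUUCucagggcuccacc
miR-744-5p: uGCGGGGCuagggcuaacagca
miR-760-3p: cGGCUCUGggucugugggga

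Of the 9 alike miRNAs with a RefSeq sequence, GC content ran from 56.5 to 70.0%. In DG over time in home cage, miR-423-5p had a log2 fold change of -1.03 ± 0.27 and miR-671-3p of -0.49 ± 0.13 (edgeR adjusted p = 0.0153 and 0.0143). In enrichment they had -1.09 ± 0.26 and -0.43 ± 0.13 (adjusted p = 0.0106 and 0.027). Both were picked for levels like those of miR-92b-3p in these same libraries. Their fall over time is therefore no independent evidence, and neither are its adjusted p-values.

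GC content moved with the time effect in DG and with some contrasts in CA. Across 463 tested miRNAs with a sequence, log2 fold change and GC content had a Spearman rho of -0.34 in home cage and -0.35 in enrichment, a description across miRNAs that are not independent. The 88 miRNAs with at least 60% GC had median log2 fold changes of -0.18 and -0.15, and the 144 under 45% had 0.10 in both. Of those 88, 7 in home cage and 13 in enrichment, miR-92b-3p among them, had a value at or below that of miR-92b-3p. With an offset for GC content in the fit, chosen after seeing the data, miR-92b-3p fell by 0.52 ± 0.07 in home cage and 0.38 ± 0.07 in enrichment on the log2 scale. In CA the offset gave 0.07 ± 0.11 and 0.24 ± 0.09. Across 511 miRNAs in CA, rho of log2 fold change and GC content was 0.05 over time in home cage and -0.38 in enrichment. Under enrichment at 10 weeks in CA it was -0.52. The contrasts with -0.38 and -0.52 hold library 3 of 10wEE_CA.

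**Figure D5:**
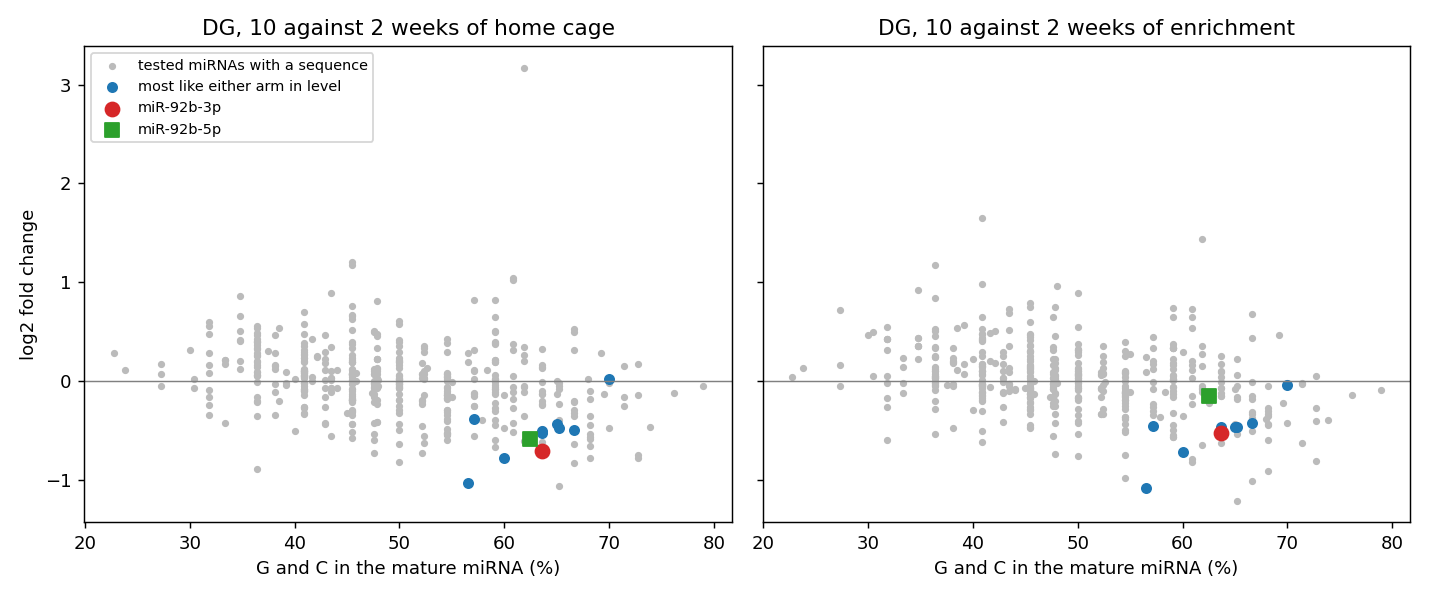
Log2 fold change of 10 over 2 weeks in DG against the share of G and C in the mature miRNA, in home cage (left) and enrichment (right), 1 grey point a tested miRNA, with miR-92b-3p as a red circle, miR-92b-5p as a green square and the miRNAs most like either arm in blue. miR-92b-3p lies at 63.6% GC and -0.71 or -0.53. The miRNAs most like either arm in level, picked for that likeness in these same libraries, lie mostly below 0 at 56.5 to 70.0% GC.

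Other miRNAs known for roles in adult neurogenesis were taken from a list of 22, of which 20 were tested in DG. The list was chosen, and its passing miRNAs named, with earlier results of these data known. Their counts and adjusted p-values are therefore no independent evidence. In home cage over time 3 were higher and 2 lower, 5 of 20 against 16% of all 525 miRNAs, with a median of 0.12 against 0.00 over all. miR-137-3p, which regulates proliferation of adult neural stem cells, rose by 0.41 ± 0.09 (edgeR adjusted p = 0.0062). let-7b-5p, which restrains neural stem cell proliferation, rose by 0.38 ± 0.10 (adjusted p = 0.0153). miR-125b-5p fell by 0.33 ± 0.09 (adjusted p = 0.0197) and miR-204-5p by 0.30 ± 0.10 (adjusted p = 0.0471), and miR-134-5p rose by 0.39 ± 0.13 (adjusted p = 0.0419). In enrichment miR-137-3p rose by 0.35 ± 0.09 (adjusted p = 0.0163) and the other 19 did not pass, against 9.9% of all miRNAs that did. The median was 0.14 against -0.02 over all. Under enrichment for 2 weeks in DG, miR-132-3p, an activity-induced miRNA, rose by 0.56 ± 0.10 (adjusted p = 0.00368) and the other 19 did not pass, where 0.571% of all did. None of the 20 passed under enrichment at 10 weeks in DG or at either time in CA. Over time in CA 0 passed in home cage, and in enrichment 1 was higher and 1 lower, where 2.58% of all 581 passed. The fit of CA for this list held library 3 of 10wEE_CA, and the list was not counted without it.

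Markers of other cells were set beside the time effect in DG, where 16% of all 525 miRNAs passed in home cage and 9.9% in enrichment. With 3 to 7 miRNAs tested in a list, 1 that passed is read against those shares and is no result about the list. These lists too were chosen with earlier results of these data known, so their adjusted p-values are no independent evidence. Of 7 miRNAs of the proliferating-cell list, 0 passed in edgeR in either housing, with medians of 0.06 in home cage and 0.17 in enrichment. The list holds miR-25-3p of the seed family, and the other 7 of its 8 miRNAs are also in the neurogenesis list. The summed level of the 8 ranged from 1999 to 2351 CPM in 2wHC_DG and from 2165 to 2559 CPM in 10wHC_DG, and from 2055 to 2270 CPM in 2wEE_DG and from 2240 to 2589 CPM in 10wEE_DG. Of 3 oligodendrocyte miRNAs 1 was higher in home cage, miR-338-5p, by 1.17 ± 0.20 (edgeR adjusted p = 0.00024). The summed level of 4 went from 2002 to 2599 CPM in 2wHC_DG and from 2324 to 3869 CPM in 10wHC_DG, and from 2240 to 2559 CPM in 2wEE_DG and from 2125 to 2813 CPM in 10wEE_DG. Of 4 erythrocyte miRNAs 1, miR-451a, was higher in enrichment, with summed levels of 174 to 286 CPM in 2wEE_DG and 250 to 518 CPM in 10wEE_DG, and of 167 to 293 CPM in 2wHC_DG and 208 to 516 CPM in 10wHC_DG. Of 5 miRNAs of microglia and leukocytes 1, miR-150-5p, and of 5 of choroid plexus and ependyma 1, miR-204-5p, were lower in home cage, and of 3 vascular ones 0 passed, with miR-126a-5p at 0 in all libraries. The summed level of microglia and leukocytes ranged from 2975 to 3868 CPM in 2wHC_DG, from 2477 to 3230 in 10wHC_DG, from 2880 to 3707 in 2wEE_DG and from 2434 to 3309 in 10wEE_DG. The vascular level ranged from 14332 to 58338 CPM in 2wHC_DG, from 14292 to 47734 in 10wHC_DG, from 16984 to 35157 in 2wEE_DG and from 13029 to 63186 in 10wEE_DG. The summed choroid plexus level ranged from 15595 to 21533 CPM in 2wHC_DG and from 13550 to 17059 CPM in 10wHC_DG, and from 15427 to 18359 CPM in 2wEE_DG and from 14353 to 18667 CPM in 10wEE_DG. Groups of 2 and 10 weeks overlapped in every one of these lists. Median log2 fold changes in enrichment were 0.48 over the erythrocyte list, 0.39 over microglia and leukocytes, 0.39 over vascular, -0.05 over oligodendrocyte and -0.12 over choroid plexus miRNAs, against -0.02 over all. In home cage they were 0.12, 0.09, 0.01, 0.15 and -0.17 in that order, against 0.00. The median summed level of microglia and leukocytes in enrichment was 2900 CPM at 2 weeks and 2906 CPM at 10 weeks. Of the reads in a library, the share assigned to miRNAs averaged 31.2% in 2wHC_DG and 26.7% in 10wHC_DG, and 31.9% in 2wEE_DG and 29.9% in 10wEE_DG. The part of these in the time effect on miR-92b was not tested.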

How the data were processed

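Small RNA was sequenced from 52 samples in 8 groups, taken from the sample titles. CASAVA 1.8.2, cutadapt, STAR, HTSeq and the build mm10 are named in the submitters' processing notes, with no further version and no miRNA annotation. The deposited values are raw counts per mature miRNA, 1900 a library. Their 5 closing rows, totals of reads given to no miRNA, were dropped. Totals, 480792 to 6706855, set the precision. Floors and the interval of a single library's arm ratio cover counting error only. Intervals of log2 fold changes and folds rest on the SE of the edgeR fit, which includes the spread between libraries.

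Counts were tested with edgeR 4.0.16 in R 4.3.3 (quasi-likelihood F test, TMM, filterByExpr, Benjamini-Hochberg over all tested miRNAs, threshold 0.05), on CA libraries, DG libraries or all. The fit was tested on simulated data. Arm ratios were compared by exact permutation. Sequences came from RefSeq and matched 1603 of 1900 names. The members, lists and rule for named miRNAs (both arms, seed family, the 5 most alike, passing neurogenesis miRNAs) were chosen with earlier results of these data known. Alternatives were DESeq2 1.42.0, limma 3.58.1 (voom), other scalings, filters and samples. Of 147 pairs of libraries within groups 0 held identical values. Adjusted p-values of the arms' time contrasts were computed but support nothing, since the arms were chosen with those effects known.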

Additional observations from a re-analysis of the deposited data

Results flagged for a closer look

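Of 40 group tests for a value far from the others, 5 were positive, and chance flags about 1 in 20 groups. Library 3 of 10wEE_CA lay far from the other 7 libraries of its group in miR-92b-3p, at 4145 CPM, in total miRNA counts, at 480792, and in the share of miR-92b-3p in its seed family, at 55.6%. Library 4 of 2wHC_CA had a miR-92b-3p level of 30354 CPM, above the other 5. Library 3 of 2wHC_CA held 6706855 miRNA counts, above the other 5.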

How the results depend on the processing

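For 47 values of the arms and their ratio, 1240 alternatives were run, of which 1186 gave the same result. The same means an unchanged direction and call. For regional differences, which have no call, it means an unchanged direction and a shift smaller than the SD within groups. The cause of the changes below was not tested. Over time in DG, miR-92b-3p ranged from -0.75 to -0.52 in home cage and from -0.59 to -0.38 in enrichment. miR-92b-5p has no value in CA under the filter at 10 CPM. For miR-92b-3p under enrichment at 2 weeks in CA (0.00), the log2 fold change was -0.012 with DESeq2, -0.012 with RLE factors, -0.049 with total counts, -0.0063 with no filter, -0.0062 with the 10 CPM filter, -0.015 with limma voom and -0.0038 with the GC offset. Without 1 library it ranged from -0.067 to 0.055. The GC offset, chosen after seeing the data, turned the sign of miR-92b-3p for enrichment at 10 weeks in CA (0.16), time in enriched CA (0.24), the change of the enrichment effect in CA (0.17), DG against CA in 10wEE (-0.073) and the regional difference of the enrichment effect at 10 weeks (-0.11). It brought the regional difference of the time effect to -0.58 in home cage and -0.58 in enrichment, under the threshold in edgeR.

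Without 1 library, miR-92b-3p ranged from -0.15 to 0.072 for enrichment at 10 weeks in CA, from -0.0082 to 0.072 for the same in DG, from -0.095 to 0.13 for time in enriched CA and from -0.15 to 0.074 for the change of the enrichment effect in CA. It ranged from -0.013 to 0.19 for the regional difference of the enrichment effect at 10 weeks, and for that of the time effect from -0.86 to -0.69 in home cage and from -0.65 to -0.45 in enrichment. The positive ends in CA are those without library 3 of 10wEE_CA, and time in enriched CA was also above 0 without library 4, 5 or 7 of 2wEE_CA. In DG the enrichment effect at 10 weeks was below 0 without library 2 or 8 of 10wEE_DG. The time effect on miR-92b-5p in home cage DG no longer passed with total counts (-0.53), no filter (-0.58), the GC offset (-0.43) and only the 2 groups (-0.59), and without 1 library ranged from -0.70 to -0.52. The log2 arm ratio under enrichment in CA ranged from 0.64 to 0.85 at 2 weeks and from -0.063 to 0.33 at 10 weeks without 1 library. Over time in home cage DG it was 0.015 with medians.

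No comparison had a correlation over 0.1 in every like-numbered pair, so pairing was not shown. With the replicate block, miR-92b-3p under enrichment was -0.058 at 2 weeks in CA and -0.015 at 10 weeks in DG, and the log2 arm ratio at 10 weeks in CA was -0.14. The block gave 85 in place of 84 calls over time in home cage DG.

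Counts of miRNAs that passed changed beyond 1.5 times as follows. Over time in home cage DG 51 passed with no filter and 55 with only the 2 groups. Over time in enriched CA, where 15 passed, 35 did with DESeq2, 36 with the GC offset, 6 with no filter and 0 with only the 2 groups. In home cage CA, where 0 passed with edgeR, 4 did with the GC offset, 2 with no filter and 8 with only the 2 groups. Under enrichment in CA 3 and 4 passed with the GC offset, and 6 at 2 weeks with only the 2 groups. Under enrichment in DG 1 of 3 passed at 2 weeks with only the 2 groups, and at 10 weeks 0 or 1 of 2 under 6 settings and without most single libraries. For the regional difference of the time effect 27 and 34 passed with DESeq2 and 23 and 41 with the GC offset, and in enrichment 23 with the 10 CPM filter, 5 with limma voom, 2 with no filter and 2 with the block. Among the miRNAs most like each arm, 3 to 5 of 5 and 1 to 4 of 5 stayed the same under other measures of likeness. The counts of miR-92b-5p, 1 to 44 in a CA library, limit what can be seen of that arm.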
